A study of Mus musculus with 12 samples.

Results

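Questioned entries of a mouse miRNA panel, mmu-miR-720, mmu-miR-1944, mmu-miR-2135, mmu-miR-2146 and mmu-miR-2183, were followed in macrophages stimulated with lipopolysaccharide (LPS). They were chosen by name, as 5 of the 566 mouse miRNA probes of the panel, because miRNA catalogues have withdrawn such entries or hold little support for them. Their level and time course in these samples were known when they were picked, so their levels, shares and differences between times are given as a description, and none of them is put forward as a test. Of the 5 entries, 2 were among the brightest probes of the panel and 3 lay close to its background. MiR-720 held 6.23% ± 1.08 of the summed mouse miRNA signal and miR-1944 held 4.70% ± 0.91 (SD, n = 12 samples). The 3 others together held 0.0782% ± 0.0225.

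A miRNA is cut from a hairpin precursor, loaded into an Argonaute protein, and pairs with target mRNAs mainly through its seed, the stretch of bases near its 5′ end. Early small RNA sequencing also collected fragments of tRNA, rRNA and other abundant RNAs, and some of these entered the catalogues under miRNA names before they were traced to their source. MiR-720 is the best known case, a name given to a fragment of a threonine tRNA. For the other entries the panel name alone is used here, and no source RNA, precursor or target is assigned to them. A probe counts any RNA that carries its sequence and can be ligated to its tag, whichever longer RNA that sequence came from.

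The samples were IMM, an immortalized line of mouse macrophages, kept in cDMEM and used 5 passages after thawing. All 12 samples came from this line, and the labels name no genetic change. The groups were 0 min, which the submitters named as the control, and 30, 60 and 120 min of LPS at 100 ng/mL, with 3 biological replicates each. RNA was hybridized to a NanoString nCounter mouse miRNA panel, which counts coloured barcodes without amplification, after each miRNA has been ligated to a tag.

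The deposited value is called signal here, since no source used here states the authors' normalization. In every sample the geometric mean of the housekeeping mRNAs Actb, B2m, Gapdh and Rpl19 was 9390 signal units. Values on the deposited scale are thus relative to these mRNAs. Each sample's signals were whole multiples of a step of its own (0.748 to 2.26 signal units), so they have the form of a count times a factor, with a floor of 20. Mouse miRNA counts read back in this way ranged from 114754 to 313170 per sample. In 0 min replicate 1 the step was largest, so that a value at the floor could hide a signal of up to 45.3. That library stood apart, with 882 housekeeping counts per 1000 counts of the spiked positive controls, against 1585 to 3156 in the 11 others. The myeloid miRNAs miR-223, miR-142-3p, miR-142-5p, miR-146a and miR-21 were above the floor in all 12 samples. Of 12 markers of epithelium, neurons, muscle and liver, 4 (miR-141, miR-9, miR-1 and miR-122) stayed at the floor throughout, and 3 (miR-200b, miR-200c and miR-128) passed the filter described next, with means of 30.6, 30.6 and 33.8. MiR-124 was above the floor in 9 samples and miR-133a in 4. The summed signal of the 5 epithelial markers was 111 to 162 at 0 min, 116 to 137 at 30 min, 106 to 132 at 60 min and 100 to 134 at 120 min, where the floor alone gives 100. A probe was tested when its mean signal was above 30.5, which is 2 SD over the average of the 8 negative controls. These controls are whole counts without the step of a sample, so the filter sets signal against counts. All 5 entries were among the 166 probes that passed. The means of miR-2135 and miR-2183 in the 0 min samples, 30.3 and 21.3, were below 30.5, so these 2 passed through the stimulated samples.

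The RefSeq table of mature miRNAs (GRCm38.p6) matched 0 of the 5 entries by name. The sequences below are of catalogued miRNAs: 4 that share the top of the panel with miR-720 and miR-1944, then miR-26b and miR-146a. MiR-26b and miR-146a correlated best with miR-720 and miR-2146, in that order, after each sample's median was subtracted. Capitals mark the seed, bases 2 to 8 from the 5′ end, and these panel names state no arm, so the 5p arm is the RefSeq match taken here.
let-7g-5p: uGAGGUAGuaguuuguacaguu
let-7a-5p: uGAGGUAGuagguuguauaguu
miR-20a-5p: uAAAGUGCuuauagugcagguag
miR-17-5p: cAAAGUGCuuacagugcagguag
miR-26b-5p: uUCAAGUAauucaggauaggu
miR-146a-5p: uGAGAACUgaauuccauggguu
The let-7 sequences share one seed and miR-20a and miR-17 share another. The first pair belongs to a family that restrains growth, and the other to a cluster that promotes it. Because near-identical members of a family share probes, miR-20a and miR-20b are 1 probe on this panel, and so are miR-106a and miR-17.

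MiR-720 was the third brightest mouse miRNA probe by mean signal (13432 ± 3881, SD, n = 12), between let-7g (13823 ± 3865) and let-7a (12657 ± 3785). Its rank within a sample ran from 2 to 5. These neighbours were not separated beyond the spread between samples: let-7g was brighter than miR-720 in 6 of 12 samples and let-7a in 5 of 12. Ranks here are ranks of signal, since capture can differ between probes and copies per cell were not measured.

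The signal of miR-720 at 0 min was 12486, 7625 and 8023 in replicates 1, 2 and 3. At 30 min it was 16030, 12261 and 17610. At 60 min it was 14497, 19243 and 11552, and at 120 min 18862, 10849 and 12146. Every stimulated group overlapped the 0 min group, through the high value of 0 min replicate 1 alone. The group means were 9378 ± 2699 at 0 min, 15300 ± 2748 at 30 min, 15097 ± 3881 at 60 min and 13952 ± 4302 at 120 min (SD, n = 3 each).

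As a share of the mouse miRNA signal, which needs no scaling between samples, miR-720 was highest at 30 min. Its share at 0 min was 4.66%, 4.82% and 5.89%. It was 6.98%, 7.11% and 8.05% at 30 min, and 6.18%, 7.46% and 6.81% at 60 min. At 120 min it was 5.40%, 5.20% and 6.22%. The 30 and 60 min samples all lay above the 0 min samples, by 2.25 and 1.69 percentage points on average, whereas the 120 min samples overlapped them, with a mean difference of 0.48 points (0.17 without 120 min replicate 3, and 0.25 and 0.87 without 0 min replicates 1 and 3). In shares, 21.7% of the 166 tested probes had all 30 min samples above all 0 min samples, and 25.3% had all 60 min samples above them, so such a separation was common on the panel. Shares of one total move against each other: the probe of miR-20a and miR-20b, the brightest of all, held 11.9% ± 1.40 at 0 min, 9.55% ± 0.89 at 30 min, 8.47% ± 1.03 at 60 min and 8.61% ± 0.79 at 120 min. In these bulk lysates a change in RNA per cell cannot be told apart from a change in the mix of cells.

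**Figure D1:**
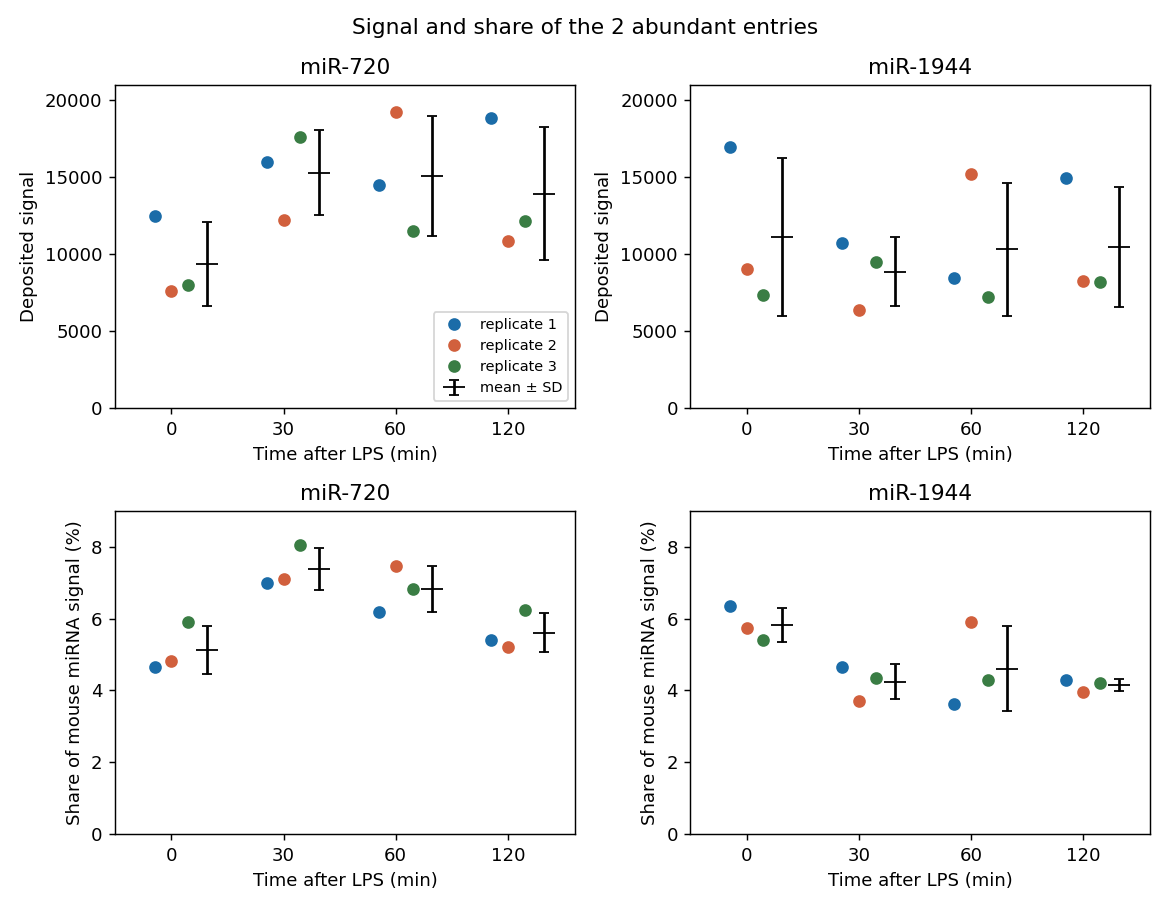
Deposited signal (top, signal units) and share of the summed mouse miRNA signal (bottom, percent) of miR-720 and miR-1944 at 0, 30, 60 and 120 min of LPS. Points are the 3 replicates of each time and bars are means ± SD; the shares of miR-720 at 30 and 60 min, from 6.18% to 8.05%, all lie above those at 0 min.

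MiR-720 moved with the ligation controls, RNAs added to each reaction that report on the tagging step and that cells do not make. Per 1000 positive control counts, the 3 positive ligation controls summed to 384 to 529 in the 9 stimulated samples, against 142, 278 and 293 in the 0 min samples, with no overlap. Counts of miR-720 on the same scale were 601 to 851 in the stimulated samples, against 238, 442 and 439 at 0 min, again with no overlap. On that scale 28.9% of the tested probes had all 9 stimulated samples above every 0 min sample, among them miR-720 and miR-2135 of the 5 entries. The ratio of miR-720 to the summed ligation controls was 1.33 to 1.67 in the stimulated samples, against 1.68, 1.59 and 1.50 at 0 min, so the groups overlapped once the ligation controls were the base. On that base 17.5% of the tested probes had all 9 stimulated samples below every 0 min sample and 0 had all 9 above. Most tested probes thus overlapped, and the overlap is not particular to miR-720. The part of the ligation step in the miR-720 result was not tested.

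**Figure D2:**
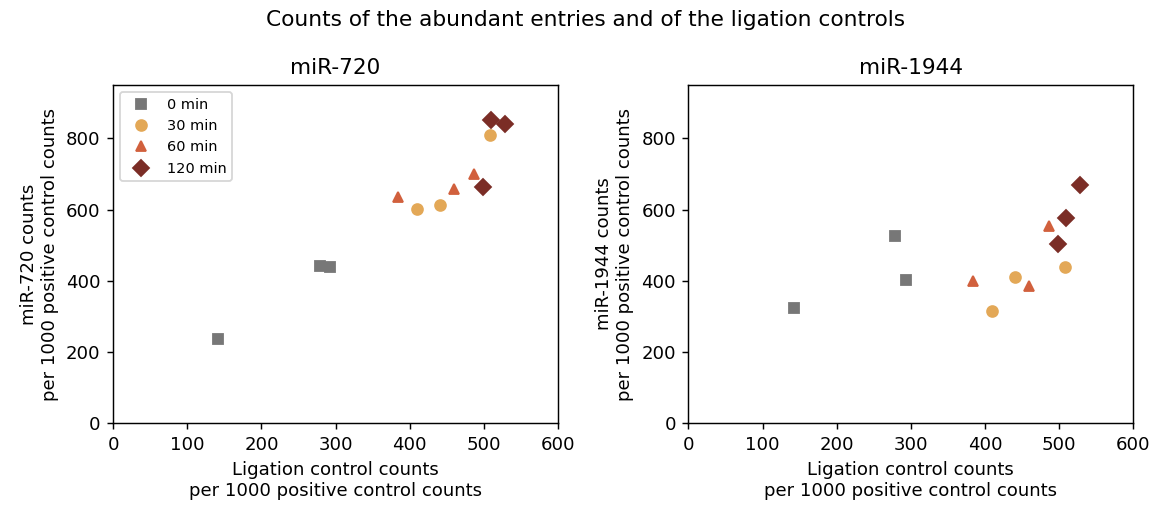
Counts of miR-720 (left) and miR-1944 (right) against the summed counts of the 3 positive ligation controls, both per 1000 positive control counts, with 1 point per sample and the marker showing the time of LPS. For miR-720 the 0 min samples lie at 238 to 442 and the 9 stimulated samples at 601 to 851, while for miR-1944 the times overlap along the vertical axis.

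MiR-1944 was the sixth brightest probe (10207 ± 3546, SD, n = 12), between the probe of miR-106a and miR-17 (10596 ± 3106) and that of miR-16 (9168 ± 3422), and its rank within a sample ran from 3 to 12. The miR-106a and miR-17 probe was brighter than miR-1944 in 8 of 12 samples and miR-16 in 6 of 12, so this order too was within the spread. The signal of miR-1944 at 0 min was 16993, 9058 and 7350 in replicates 1, 2 and 3. At 30 min it was 10723, 6410 and 9529, and at 60 min 8484, 15244 and 7257. At 120 min it was 14978, 8248 and 8208. The highest of all 12 values was that of 0 min replicate 1, and every stimulated group overlapped the 0 min group.

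The share of miR-1944 was lower after stimulation than before it. It was 6.35%, 5.72% and 5.40% at 0 min, 4.67%, 3.72% and 4.35% at 30 min, 3.61%, 5.91% and 4.28% at 60 min, and 4.29%, 3.95% and 4.21% at 120 min. The 30 and 120 min samples all lay below the 0 min samples, with mean differences of -1.58 and -1.67 percentage points, while at 60 min replicate 2 overlapped them and the mean difference was -1.22 (-1.88 without that replicate and -0.73 without replicate 1). In shares, 13.9% of the tested probes had all 30 min samples below all 0 min samples, and 22.3% had all 120 min samples below them. Unlike miR-720, miR-1944 overlapped between stimulated and 0 min samples in counts per 1000 positive control counts (314 to 668, against 324, 526 and 402 at 0 min). Its ratio to the summed ligation controls was 0.767 to 1.26 in the 9 stimulated samples, against 2.28, 1.89 and 1.37 at 0 min, with no overlap, and 17.5% of the tested probes lay lower in all 9 on that base.

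The ratio of miR-720 to miR-1944 within a sample is free of any scaling. It was 0.735, 0.842 and 1.09 at 0 min, 1.49, 1.91 and 1.85 at 30 min, 1.71, 1.26 and 1.59 at 60 min, and 1.26, 1.32 and 1.48 at 120 min. All 9 stimulated samples lay above all 0 min samples. The pair was picked with its opposite shares known, and among the 8256 pairs of tested probes above the floor in every sample 19.5% of the ratios separated in one direction or the other. The group means were 0.889 ± 0.183 at 0 min, 1.75 ± 0.22 at 30 min, 1.52 ± 0.23 at 60 min and 1.35 ± 0.11 at 120 min (SD, n = 3 each). A ratio of this kind shows unequal change of the pair and not which of them moved. With their opposite shares, the 5 entries together held 11.0% ± 0.39, 11.7% ± 0.80, 11.5% ± 1.83 and 9.86% ± 0.66 of the signal at 0, 30, 60 and 120 min.

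The 3 faint entries lay within a few multiples of the negative controls. In counts, miR-2135 was 1.31 to 3.57 times the highest negative control of its sample in the 11 samples where it was above the floor. MiR-2146 was 1.16 to 6.29 times that control in all 12 samples. MiR-2183 was above the floor in 9 samples, at 0.939 to 4.63 times the control, and exceeded it in 7 of them. Their group means ranged from 21.3 to 111 signal units, and in single samples above the floor they had 28 to 176 counts, so that differences of a few counts cannot be resolved.

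MiR-2135 was at the floor in 0 min replicate 1 and had 29.4 and 41.6 in the other 0 min samples. It had 81.9, 57.7 and 96.2 at 30 min, 70.0, 141 and 45.1 at 60 min, and 81.1, 47.8 and 38.9 at 120 min. The 30 and 60 min samples all lay above the 0 min samples, and the 120 min samples overlapped them. In signal, 15.7% of the tested probes had all 30 min samples above all 0 min samples, and 18.1% had all 60 min samples above them. The floor in 0 min replicate 1 could hide a value above those of both other 0 min samples, and above the lowest 60 min value.

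MiR-2146 was highest at 120 min. It had 83.8, 33.8 and 33.1 at 0 min, 48.7, 31.8 and 46.3 at 30 min, 43.9, 65.7 and 36.2 at 60 min, and 131, 69.4 and 132 at 120 min. Counts differed little before that, 37 to 39 at 0 min, 32 to 41 at 30 min and 41 to 50 at 60 min, and were 87 to 176 at 120 min. These counts are not adjusted for depth, and all mouse miRNA counts were 114754 to 173145 at 0 min and 250977 to 313170 at 120 min. As a share, miR-2146 held 0.0213% to 0.0313% at 0 min and 0.0332% to 0.0675% at 120 min. In shares, 27.1% of the tested probes had all 120 min samples above all 0 min samples. The signal of 0 min replicate 1 stems from 37 counts and the large step of that library, and it lay above 1 of the 120 min values.

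MiR-2183 was at the floor in 0 min replicates 1 and 2 and had 23.8 in replicate 3. It had 43.9 and 45.1 in 30 min replicates 1 and 3 and was at the floor in replicate 2. At 60 min it had 50.1, 76.3 and 27.4, and at 120 min 61.4, 88.5 and 67.4. The 60 and 120 min samples all lay above the 0 min samples as listed, which was true of 18.1% and 34.9% of the tested probes. A hidden value of 45.3 in 0 min replicate 1 would exceed the lowest 60 min value but no 120 min value.

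**Figure D3:**
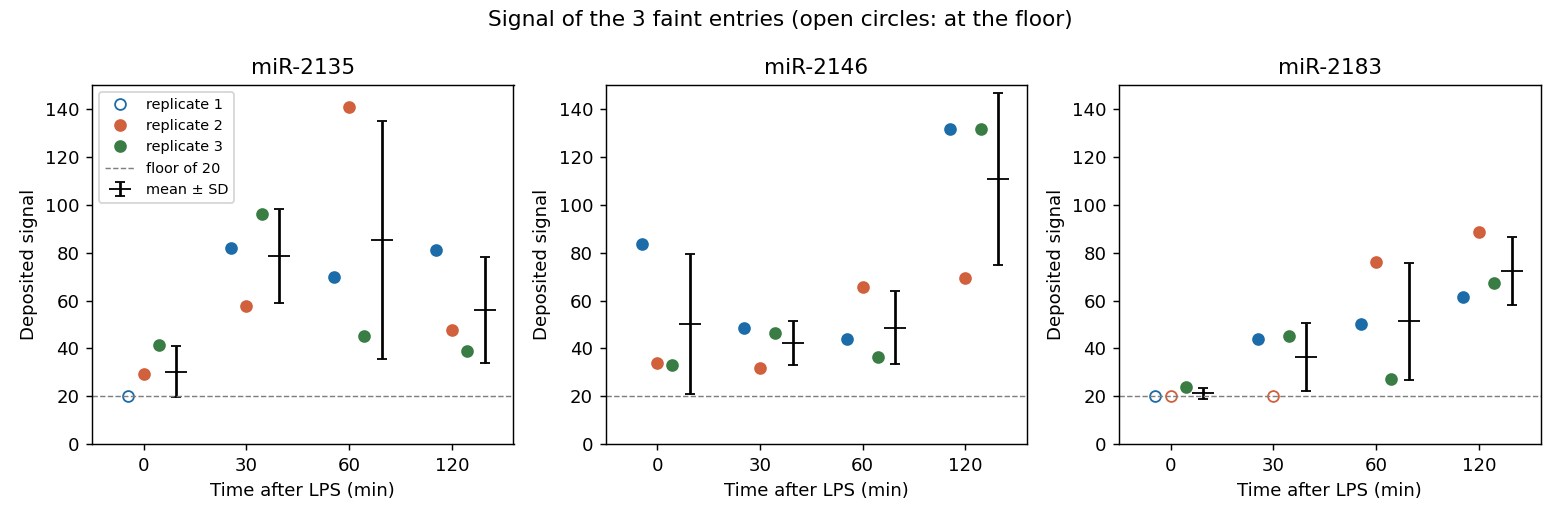
Deposited signal (signal units, axis from 0) of miR-2135, miR-2146 and miR-2183 at 0, 30, 60 and 120 min of LPS, with the 3 replicates of each time as points and means ± SD as bars. Open circles lie at the floor of 20 (dashed line); miR-2146 stands at 69.4 to 132 at 120 min, and miR-2183 was at the floor in 2 of 3 samples at 0 min.

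A linear model fitted to all 166 tested probes on log2(signal + 1) gave each entry's log2 change from 0 min. The added 1 and the floor weigh most on the changes of faint probes, and the floor can understate or overstate them. The SE was 0.38 for every entry, because limma gave all 166 probes the same pooled variance in this fit. It therefore does not measure the spread of a single entry. MiR-720 changed by 0.73, 0.69 and 0.57 at 30, 60 and 120 min, beside a median of 0.28, 0.43 and 0.57 over all tested probes. MiR-1944 changed by -0.26, -0.09 and -0.05, below the median at each time, and by 0.09, 0.26 and 0.30 without 0 min replicate 1. The changes of miR-2135 were 1.37, 1.36 and 0.85, those of miR-2146 were -0.13, 0.05 and 1.21, and those of miR-2183 were 0.66, 1.12 and 1.71. Over all 166 probes, 3.01%, 10.8% and 21.7% passed an adjusted p threshold of 0.05 in limma at 30, 60 and 120 min against 0 min. The entries among them were miR-2135 at 30 and 60 min, miR-2183 at 60 and 120 min and miR-2146 at 120 min. Nothing is read from these counts, since the entries were picked with their changes known and since miR-2135 and miR-2183 entered the fit through the stimulated samples. Each of these calls ended with no filter on low values and with the common floor, a setting that raises signal in all samples to the highest value the floor could hide. Each also ended under top-100 scaling, other than that of miR-2183 at 120 min.

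The direction of several of these changes depended on the scaling between samples. With each sample divided by the geometric mean of its 100 brightest probes (top-100 scaling), the medians over all tested probes were -0.06, -0.03 and -0.06. MiR-720 then changed by 0.38, 0.22 and -0.07, and with the ligation controls as the base by -0.09, -0.13 and -0.19. Over all 12 samples miR-1944 was negative, at -0.60, -0.56 and -0.69 with the 100 brightest probes as the base and at -1.08, -0.91 and -0.81 with the ligation controls as the base. It was called lower at 60 and 120 min under top-100 scaling, as were 19.9% and 27.1% of the tested probes. With the ligation controls as the base it was called lower at 30, 60 and 120 min, as were 47.6%, 37.3% and 28.9%. MiR-2146 was called lower on that base at 30 and 60 min. MiR-2183 was called higher at 120 min on both bases, as were 14.5% and 9.04%. Nothing is read from these calls.

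A change of scaling shifted all 5 entries alike, and the faint ones were moved by the floor besides. Under top-100 scaling miR-2135 changed by 1.04, 0.90 and 0.23, miR-2146 by -0.46, -0.41 and 0.58, and miR-2183 by 0.33, 0.66 and 1.09. With the common floor added, miR-2183 changed by 0.02 and miR-2135 by -0.32 at 120 min. On the deposited scale, leaving out single libraries moved the values of the faint entries both down and up. MiR-2135 changed by 1.11 at 30 min without 0 min replicate 1 and by 0.93 at 60 min without 60 min replicate 2. MiR-2183 changed by 0.78 at 60 min without 60 min replicate 2, and miR-2146 by 0.98 at 120 min without 0 min replicate 3. The highest values on leaving out 1 sample were 1.62 and 1.74 for miR-2135 at 30 and 60 min. They were 1.50 for miR-2183 at 60 min and 1.64 for miR-2146 at 120 min.

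**Figure D4:**
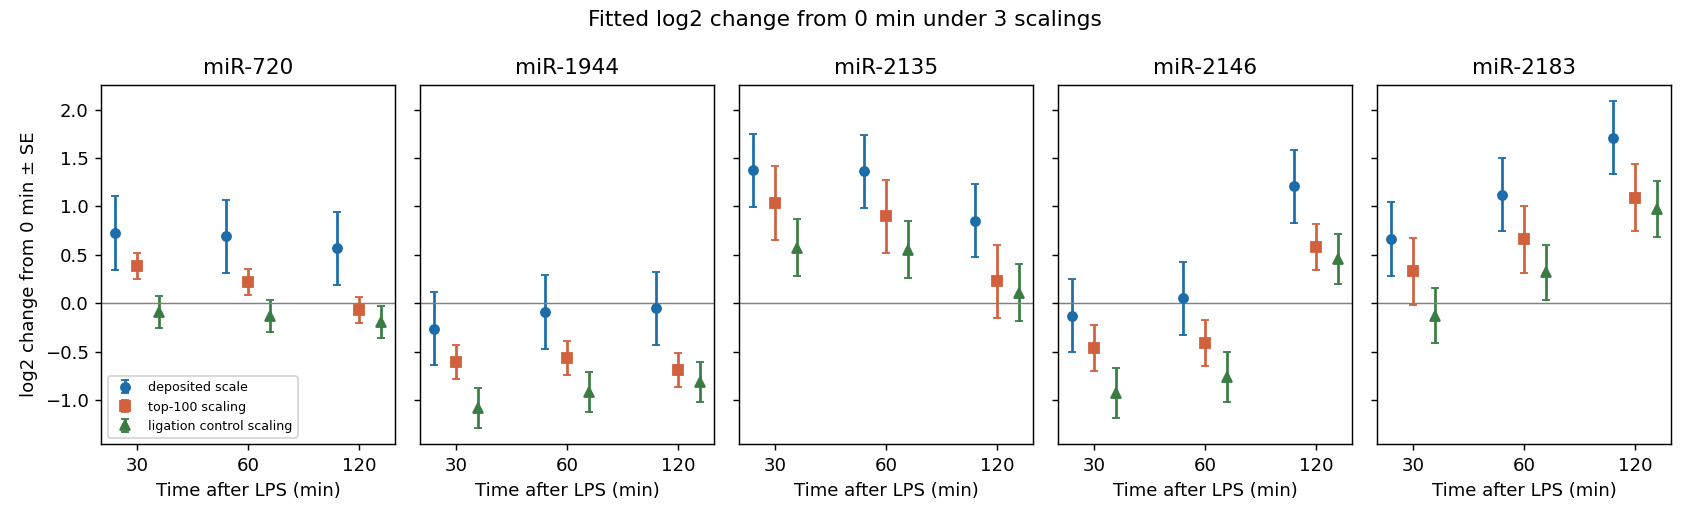
Fitted log2 change from 0 min (± SE) of the 5 entries at 30, 60 and 120 min of LPS on the deposited scale, with the top-100 probes as the base and with the ligation controls as the base. MiR-1944 lies below 0 under all 3 scalings, from -1.08 to -0.05, whereas miR-720 at 120 min is 0.57 on the deposited scale, -0.07 under top-100 scaling and -0.19 against the ligation controls.

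Successive stimulated times were set side by side in the same fit. Between 60 and 30 min 0.602% of all probes passed in limma, none of them an entry. MiR-720 differed by -0.03 ± 0.38 and miR-1944 by 0.17 ± 0.38 (log2, SE). Between 120 and 60 min 0 of the 166 probes passed in limma, while 15 had an unadjusted p under 0.05. MiR-720 differed by -0.12 ± 0.38, miR-1944 by 0.04 ± 0.38, miR-2135 by -0.51 ± 0.38 and miR-2183 by 0.59 ± 0.38. The SE leaves room for changes well beyond these values, so a lack of difference is not shown.

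MiR-2146 had the largest difference of the 5 entries between 120 and 60 min on the deposited scale. All 3 samples at 120 min (131, 69.4 and 132) lay above all 3 at 60 min (43.9, 65.7 and 36.2), which was true of 7.23% of the tested probes. The difference was 1.16 ± 0.38 on the deposited scale, 0.99 ± 0.24 under top-100 scaling and 1.22 ± 0.26 with the ligation controls as the base. Over 22 alternatives it ran from 0.87 to 1.46.

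Probes whose signal followed each entry most closely were found by Pearson correlation over the 12 samples, on log2(signal + 1) after subtracting each sample's median, as a description with no test. MiR-720 lay nearest to miR-26b (r = 0.69) and miR-1274a (r = 0.69), the second of them a name that human work traced to a lysine tRNA. MiR-1274a had 75.6 ± 25.0 at 0 min, 125 ± 47.7 at 30 min, 144 ± 53.6 at 60 min and 125 ± 25.7 at 120 min (SD, n = 3 each). MiR-26b had 95.1 ± 27.4, 138 ± 22.6, 136 ± 26.6 and 132 ± 57.4 at those times, so both were lowest on average at 0 min. MiR-466g (0.63), miR-200b (0.59) and miR-467a (0.59) came next.

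MiR-1944 followed a different set, let-7b (0.86), miR-30c (0.85), miR-27a (0.84), miR-192 (0.84) and miR-99a (0.84). MiR-2135 lay nearest to miR-1937c (0.67), another entry of the same number range, and then to miR-140 (0.63). MiR-1937c had 134 ± 39.1 at 0 min, 231 ± 41.0 at 30 min, 289 ± 135 at 60 min and 210 ± 38.3 at 120 min.

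MiR-2146 lay nearest to miR-146a (0.86), which restrains Toll-like receptor signalling in macrophages, and to miR-196b (0.84) and miR-221 (0.83), the last a regulator of the cell cycle. MiR-146a had 2551 ± 812 at 0 min, 2770 ± 582 at 30 min, 3368 ± 860 at 60 min and 6045 ± 2095 at 120 min, so its level was also highest at 120 min. MiR-2183 lay nearest to miR-3099 (0.84), miR-376a (0.83), miR-103 (0.82) and miR-222 (0.82). MiR-376a had 53.2 ± 20.1 at 0 min, 181 ± 83.1 at 30 min, 516 ± 248 at 60 min and 1089 ± 270 at 120 min. All such values share 12 libraries and, for the faint probes, the floor.

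As a set the 5 entries did not follow one another, and none was among the 5 probes nearest to another. The closest pair, miR-720 and miR-2135, came near the fifth probe on each of their lists (0.59 and 0.56). On the same measure the correlation was 0.16 between miR-720 and miR-1944 and ran from -0.61 (miR-2135 and miR-2146) to 0.53 (miR-720 and miR-2135) over the 10 pairs. In deposited signal, before the sample median was subtracted, all 10 were positive, from 0.02 to 0.76.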

How the data were processed

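NanoString barcodes were counted in 12 samples, 3 per time point, per the labels. The deposited values are a signal per probe, and how the authors normalized it is not stated in the sources used here. Signals between 20 and 2000 were whole multiples of a step particular to each sample (tolerance 0.1), and counts were read back by dividing by that step. Another check, which starts from the lowest value of a sample and includes floored and control values, found only 69.9% to 90.6% of low values whole in 11 samples and could not judge 1, so no count test was run and the counts printed rest on the first step alone. Shares are of the summed signal of 566 mouse miRNA probes, floored values included. Log2(signal + 1) of the 166 probes with a mean above 30.5 entered a limma fit (version 3.58.1, R 4.3.3) over all 4 groups, with Benjamini-Hochberg adjustment over all 166. The p-values rest on the spread between replicate samples of one cell line. In the fit on the deposited scale that spread was pooled over all 166 probes and was not the spread of each probe. Alternatives were a pseudocount of 20, 2 other filters, 2 other scalings, a common floor, a robust variance model, a replicate block and leaving out each sample. The fit was tested on simulated data. The 5 entries, the lists of comparators and the rule for naming them (all entries, the 5 probes most like each, the neighbours in level, and the 4 brightest in the number range) were chosen with earlier results of these data known.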

Additional observations from a re-analysis of the deposited data

How the results depend on the processing

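On the deposited scale 5, 18 and 36 of 166 probes were called at 30, 60 and 120 min against 0 min, 1 between 60 and 30 min and 0 between 120 and 60 min, all higher. In the same order, top-100 scaling called 1, 52, 69, 0 and 5 probes (0 higher and 1 lower at 30 min, 19 and 33 at 60 min, 24 and 45 at 120 min), and ligation control scaling 81, 69, 63, 2 and 10 (2 higher and 79 lower, 7 and 62, 15 and 48 against 0 min). The common floor called 0, 2, 15, 0 and 1. Without the filter 0, 0 and 0 were called at 30 and 60 min against 0 min and between 60 and 30 min, and 7 between 120 and 60 min, where the filter in counts called 1. Top-100 scaling with the first 0 min sample left out, an alternative chosen after seeing the data, called 0, 26, 50, 0 and 10, and with the common floor, chosen in the same way, 1, 46, 63, 0 and 4. Leaving out 1 sample gave 0 to 6, 7 to 41, 16 to 77, 0 to 1 and 0 to 6 calls. Against 0 min, the 30 min calls numbered 0 without 0 min replicate 2 or 30 min replicate 3 and 3 without 30 min replicate 1. The 60 min calls numbered 37 without 0 min replicate 1, 10 without replicate 2, 9 without replicate 3, and 10, 7 and 41 without 60 min replicates 1, 2 and 3. The 120 min calls numbered 77, 19 and 18 without 0 min replicates 1, 2 and 3, and 16 without 120 min replicate 1. Between 120 and 60 min, leaving out 0 min replicate 1 gave 6 calls, leaving out 60 min replicate 3 gave 2, and leaving out 120 min replicate 1 gave 3. Same-numbered samples did not deviate together (r from -0.38 to 0.35 over 18 pairs, 5 of them over 0.1, and 5 of 12 samples correlated best with their own number), so the numbers were not treated as pairs, and a replicate block called 7, 39, 61, 1 and 6. Under the block miR-2135 was among the calls at 120 min (0.85 ± 0.32), and miR-2146 between 120 and 60 min (1.16 ± 0.32). Neither passed on the deposited scale over all 12 samples without the block. Between 120 and 60 min miR-2146 passed in 5 of 22 alternatives. Beside the block these were top-100 scaling, ligation control scaling, leaving out 0 min replicate 1, and top-100 scaling without that sample. For miR-720 the direction turned under ligation control scaling at 30 min (-0.091), 60 min (-0.13) and 120 min (-0.19), and at 120 min under top-100 scaling (-0.069), that scaling without the first 0 min sample (-0.11) and with the common floor (-0.069). For miR-1944 it turned between 120 and 60 min under top-100 scaling (-0.13, alone and with either addition). For miR-2135 it turned at 120 min under top-100 scaling without the first 0 min sample (-0.29) and with the common floor (-0.32), and between 60 and 30 min with a pseudocount of 20 (0.011). For miR-2146 at 60 min it turned under top-100 scaling (-0.41), ligation control scaling (-0.76), the common floor (-0.12), and top-100 scaling without the first 0 min sample (-0.24) or with the common floor (-0.58). For miR-2183 it turned at 30 min under ligation control scaling (-0.13) and top-100 scaling with the common floor (-0.34), and under the second at 60 min (-0.17). Leaving out 1 sample turned miR-720 between 60 and 30 min (-0.23 to 0.14) and between 120 and 60 min (-0.36 to 0.066), miR-1944 at 30 min (-0.51 to 0.090), 60 min (-0.41 to 0.26) and 120 min (-0.34 to 0.30), between 60 and 30 min (-0.15 to 0.39) and between 120 and 60 min (-0.25 to 0.36), miR-2135 between 60 and 30 min (-0.45 to 0.36), and miR-2146 at 30 min (-0.35 to 0.31), 60 min (-0.19 to 0.48) and between 60 and 30 min (-0.058 to 0.36). Divided by the geometric mean of the 100 brightest probes in place of the sum, miR-720 was 23.6 times that mean, and differed from 0 min by 6.49, 3.56 and -0.99 at 30, 60 and 120 min, the last turned in sign. The cause of these changes was not tested. The call of miR-2135 at 30 min also ended with a pseudocount of 20 (0.97), under ligation control scaling, and without 0 min replicate 1 or 2 or 30 min replicate 1 or 3. That of miR-2146 at 120 min also ended under ligation control scaling and without 0 min replicate 2 or 3 or 120 min replicate 1 or 3. Of 22 alternatives, miR-2135 passed in 11 at 30 min and 15 at 60 min, and miR-2146 in 13 at 120 min. MiR-2183 passed in 9 at 60 min and 18 at 120 min. The count test listed as an alternative was not run, for the reason given with the processing. Counts of 28 to 176, near the negative controls, limit what can be said of miR-2135, miR-2146 and miR-2183.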

Other observations

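The panel holds 79 other probes in the number range miR-1890 to miR-2200, in which most of the entries fall. Of these, 42 were at the floor in all 12 samples, 6 were above it in all, and 12 were bright enough to be tested. Together they held 1.20% of the mouse miRNA signal, and the means of the tested ones ran from 31.5 to 219 signal units, so none came near miR-720 or miR-1944. The 4 brightest were miR-1902, miR-1937c, the shared probe of miR-1937a and miR-1937b, and miR-2141. On the deposited scale 0, 2 and 2 of the 12 were called higher at 30, 60 and 120 min, and 0 were called lower, beside 3.01%, 10.8% and 21.7% of all tested probes. Both times these were miR-1902 and miR-1970, named after their values were seen: miR-1902 had 93.8 ± 23.1 at 0 min, 265 ± 81.2 at 60 min and 353 ± 86.3 at 120 min (SD, n = 3 each), and miR-1970 was at the floor in all 0 min samples and had 43.4 ± 7.41 and 99.7 ± 27.3 at 60 and 120 min. The median log2 change of the 12 on that scale was 0.15, 0.28 and 0.11 at 30, 60 and 120 min, beside 0.28, 0.43 and 0.57 over all tested probes. Under top-100 scaling 2 were called higher and 3 lower at 60 min, beside 11.4% and 19.9% of all, and 2 higher and 5 lower at 120 min, beside 14.5% and 27.1%. The medians were then -0.17, -0.18 and -0.51, beside -0.06, -0.03 and -0.06. MiR-712, miR-714 and miR-715, other names that have been questioned, were too faint to be tested.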
